A study of Rattus norvegicus with 9 samples.

Results

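Interferon-stimulated genes and the Schlafen gene Slfn3 were followed gene by gene and rat by rat in the livers of 9 rats. The 37 symbols had been listed with earlier results of the same 9 arrays in view, so the members were chosen by the signals and group differences that are described here, and no test is drawn from those differences. A member was measured where a probe set carries its symbol alone, and where several do, the probe set with the highest mean signal was read. By this rule 34 of the 37 listed symbols were measured, of 14377 genes with such a probe set. Oas2, Xaf1 and Ifi47 had none and were not analysed here.

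The animals were male Sprague-Dawley rats, and whole liver tissue was frozen before total RNA was taken. Vehicle rats (animals 3, 4 and 5) received no CCl4. CCl4 rats (animals 1, 2 and 3) received intraperitoneal carbon tetrachloride in olive oil for 8 weeks, a hepatotoxic regimen that produces liver fibrosis. CCl4+Rot rats (animals 4, 5 and 6) received the same CCl4 and also rottlerin, which the study used as an activator of BK potassium channels, at 2.5 mg/kg by intraperitoneal injection from 2 weeks after the first CCl4 dose. Rats given rottlerin without CCl4 were not analysed here, so CCl4+Rot against CCl4 compares rats with and without rottlerin on top of CCl4. With 3 rats a group and 1 array per rat, differences between animals or arrays are part of that comparison. The samples are whole liver, in which fewer cells of a type and less RNA per cell cannot be told apart.

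Interferons are secreted proteins that bind receptors on the cell surface and act through the JAK kinases. Type I and type III interferons act through a complex with STAT2 and IRF9 that binds the interferon-stimulated response element (ISRE) in promoters, whereas interferon-gamma acts mainly through the gamma-activated sequence (GAS). The induced genes encode sensors of foreign RNA and DNA, proteins that block viral RNA and its translation, GTPases, and the ubiquitin-like modifier ISG15. In liver, hepatocytes, macrophages and other resident cells can all carry the response.

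Values are log2 signals, in which a difference of 1 is a doubling, and each array also has a call of present, marginal or absent for each probe set. Of the 34 measured members, 32 were called present on at least 3 arrays and 29 on all 9. Oas1b was called present on no array, and Ifit1 only on the array of vehicle rat 5. The array of CCl4 rat 3 stood apart from the others, with 12714 probe sets called present against 15550 to 16849 on the other 8 arrays and a median signal of 7.81 against 6.79 to 7.01. Medians and counts over the members are therefore also given without this animal, as are some differences of single members that it moved.

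The promoters of 25 of the 34 measured members are in the RefSeq promoter table (build GRCr8), matched by gene identifier, each as 300 bases from 250 before to 50 after the annotated start. The entry of Slfn3 carries the symbol Slfn4 there. The following 6 are shown. Of these 25, Slfn3, Mx1, Oas1a, Ifit3 and Irf7 had the largest differences between CCl4+Rot and CCl4. Bst2, whose difference was 0.34, holds overlapping copies of both motifs. Capitals mark matches, on either strand, to the ISRE core, searched as GAAANNGAAA, and to the GAS motif, searched as TTCNNNGAA.
Slfn3, entered in RefSeq as Slfn4 (chr10:68491970-68492269, plus strand): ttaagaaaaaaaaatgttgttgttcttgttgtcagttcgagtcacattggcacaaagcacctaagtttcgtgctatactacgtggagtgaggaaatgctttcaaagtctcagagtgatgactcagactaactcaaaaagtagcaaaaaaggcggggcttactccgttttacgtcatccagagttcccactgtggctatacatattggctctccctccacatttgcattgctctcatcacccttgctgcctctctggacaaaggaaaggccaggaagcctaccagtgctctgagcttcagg
Mx1 (chr11:50294557-50294856, minus strand): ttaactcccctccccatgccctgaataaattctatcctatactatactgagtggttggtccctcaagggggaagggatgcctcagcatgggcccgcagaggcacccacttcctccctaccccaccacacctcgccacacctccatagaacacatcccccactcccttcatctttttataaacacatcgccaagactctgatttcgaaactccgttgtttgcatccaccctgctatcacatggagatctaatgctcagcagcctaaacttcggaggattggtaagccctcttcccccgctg
Oas1a (chr12:41330216-41330515, plus strand): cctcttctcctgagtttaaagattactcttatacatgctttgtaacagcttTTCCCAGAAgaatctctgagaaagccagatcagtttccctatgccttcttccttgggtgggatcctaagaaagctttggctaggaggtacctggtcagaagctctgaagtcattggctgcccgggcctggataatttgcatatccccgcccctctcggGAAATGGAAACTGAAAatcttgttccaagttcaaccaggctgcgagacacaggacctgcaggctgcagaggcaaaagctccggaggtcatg
Ifit3 (chr1:241527076-241527375, plus strand): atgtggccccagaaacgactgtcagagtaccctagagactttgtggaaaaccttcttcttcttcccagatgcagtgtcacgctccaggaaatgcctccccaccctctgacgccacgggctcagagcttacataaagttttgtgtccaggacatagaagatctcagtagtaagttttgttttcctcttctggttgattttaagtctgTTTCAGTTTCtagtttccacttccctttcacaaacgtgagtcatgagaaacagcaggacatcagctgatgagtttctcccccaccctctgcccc
Irf7 (chr1:205799974-205800273, minus strand): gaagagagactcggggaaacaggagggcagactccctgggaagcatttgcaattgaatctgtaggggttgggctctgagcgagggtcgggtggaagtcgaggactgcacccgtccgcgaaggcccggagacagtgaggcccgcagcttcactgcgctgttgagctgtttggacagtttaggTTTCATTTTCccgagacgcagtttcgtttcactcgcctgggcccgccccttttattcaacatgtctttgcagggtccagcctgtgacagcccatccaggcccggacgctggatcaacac
Bst2 (chr16:18254918-18255217, minus strand): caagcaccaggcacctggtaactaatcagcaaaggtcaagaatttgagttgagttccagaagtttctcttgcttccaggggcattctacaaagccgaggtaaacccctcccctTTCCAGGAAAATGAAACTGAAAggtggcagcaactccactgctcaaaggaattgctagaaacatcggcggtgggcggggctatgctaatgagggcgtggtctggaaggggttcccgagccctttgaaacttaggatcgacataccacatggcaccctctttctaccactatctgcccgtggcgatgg
The windows of Slfn3 and Mx1 hold neither motif, which says only that these letters are not in these 300 bases. In Oas1a both ISRE core matches overlap and form a single run, which starts 41 bases before the gene start. In Bst2 the GAS match overlaps the first of the pair of overlapping ISRE core matches.

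An ISRE core match was found in 15 of the 25 windows (60%), against 1312 of all 33469 promoters in the table (3.92%). The 15 genes were Irf7, Ifih1, Ifit3, Oas1a, Oas1b, Eif2ak2, Gbp2, Irgm, Igtp, Bst2, Rsad2, Parp14, Ifi44, Ifi44l and Ifi27. The same 10 bases, GAAACTGAAA, occurred in 7 of them (Ifit3, Oas1a, Oas1b, Irgm, Igtp, Bst2 and Ifi44), and in 0.308% of all promoters. The GAS motif was found in 9 windows (36%), against 8.87% of all promoters, and 7 windows held both motifs (28% against 0.514%). The median CCl4+Rot minus CCl4 difference was 0.62 over the 15 genes with an ISRE core match and 0.91 over the 10 without. These medians were -0.24 and -0.475 for CCl4 minus vehicle, and 0.43 and 0.39 for CCl4+Rot minus vehicle. A link between match and difference was not tested. A match describes the sequence and does not show a bound site.

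**Figure D1:**
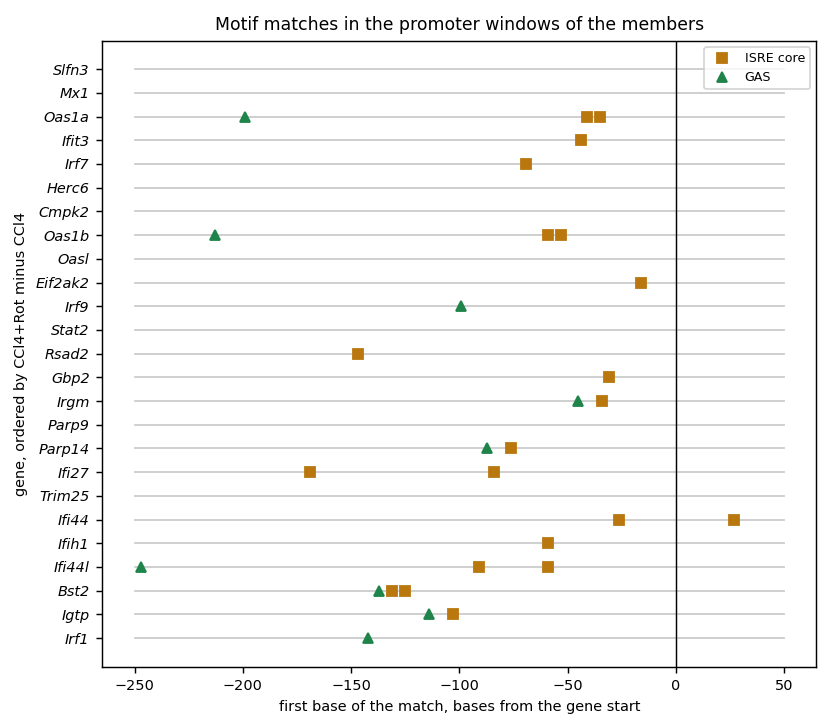
Positions of ISRE core (squares) and GAS (triangles) matches, as bases from the gene start, in the promoter windows of 25 members (grey lines), ordered from the largest CCl4+Rot minus CCl4 difference at the top. The ISRE core match farthest before a start, in Ifi27, lies 169 bases away, and the windows of Slfn3 and Mx1 at the top hold none.

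In CCl4 rats 29 of the 34 members had a lower mean than in vehicle rats and 5 a higher one, with a median difference of -0.42, while the median over all 14377 genes was 0.13. In CCl4+Rot rats 32 members had a higher mean than in CCl4 rats and 2 a lower one, with a median of 0.72 against -0.05 over all genes. Against vehicle, 30 members were higher and 4 lower in CCl4+Rot rats, with a median of 0.36 against 0.03 over all genes. Without CCl4 rat 3 the first of these medians was -0.66, with 2 members higher, and the second 1.02, with 33 higher. These directions are what the members were selected on and support nothing further. The 3 comparisons share their groups, so they are not independent of each other.

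All 3 CCl4 rats lay below all 3 vehicle rats for 15 members, a pattern found in 8.53% of all genes, and no member lay above in all 3 (12.5% of all genes). All 3 CCl4+Rot rats lay above all 3 CCl4 rats for 22 members (5.57% of all genes), among them the undetected Oas1b, and no member showed the reverse (5.6% of all genes). Above all 3 vehicle rats lay the CCl4+Rot values of 11 members (15.2% of all genes), and below them those of none (9.47% of all genes). Without CCl4 rat 3, the CCl4 rats lay below all vehicle rats for 25 members and below all CCl4+Rot rats for 31, against 15.1% and 12.3% of all genes. Since the members were chosen by the same contrasts, these shares describe them and are read no further.

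Across all 31042 probe sets, limma with Benjamini-Hochberg adjustment called none between CCl4 and vehicle (0%), 1 between CCl4+Rot and CCl4 (0.00322%) and 8 between CCl4+Rot and vehicle (0.0258%) where a call needed a change of 1.5-fold or more with an adjusted p under 0.05. At an unadjusted p below 0.05 these comparisons held 3837, 2057 and 2580 probe sets. None of the probe sets called stands for a member. Under a limma fit in which the spread follows the signal and outlying probe sets are down-weighted, the counts were 348 (1.12%), 1 (0.00322%) and 241 (0.776%). The probe sets of Stat2, Ifit3, Oas1a, Mx2 and Slfn3 were among those lower in CCl4 than in vehicle. That of Slfn3 was the 1 called between CCl4+Rot and CCl4, as higher in CCl4+Rot, and differs from the 1 called by the first fit. It was also among those higher in CCl4+Rot than in vehicle. Because the same differences chose the members, nothing is drawn from these calls.

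**Figure D2:**
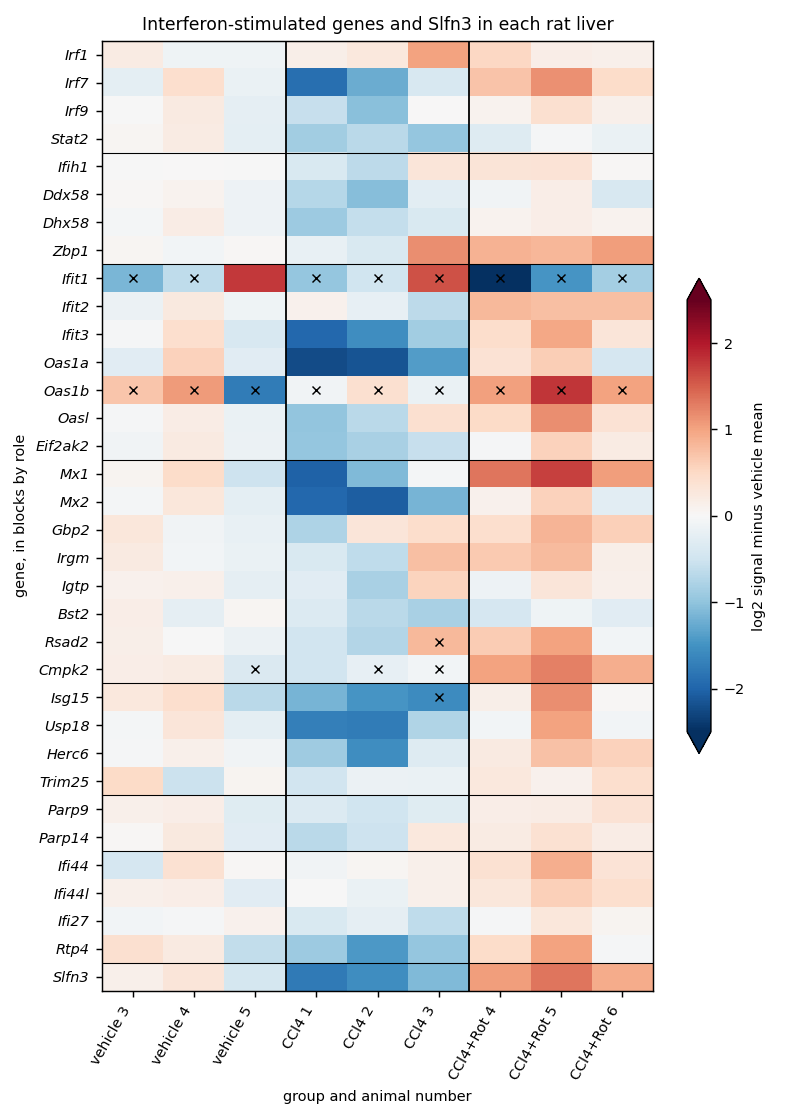
Log2 signal of the 34 measured members (lines, in blocks by role) in each rat (columns), as the difference from the vehicle mean, with red for higher and blue for lower; crosses mark signals not called present. The columns of CCl4 rats 1 and 2 are mostly blue, those of CCl4+Rot rats mostly red, and CCl4 rat 3 is mixed.

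Slfn3, a member of the Schlafen family that has been linked to growth control of lymphocytes and gut cells, showed the largest CCl4+Rot minus CCl4 difference of the members. It read 11.89, 12.07 and 11.31 in vehicle rats 3, 4 and 5, 9.99, 10.21 and 10.66 in CCl4 rats 1, 2 and 3, and 12.80, 13.09 and 12.69 in CCl4+Rot rats 4, 5 and 6. The 3 groups did not overlap, with CCl4 rats lowest and CCl4+Rot rats highest. Its mean was 2.77-fold lower in CCl4 than in vehicle, 5.96-fold higher in CCl4+Rot than in CCl4, and 2.15-fold higher in CCl4+Rot than in vehicle. Without CCl4 rat 3 the difference between CCl4+Rot and CCl4 was 2.76 on the log2 scale, against 2.58 with it. A further probe set of Slfn3 was called present on no array and lay between 3.55 and 6.77, so the result rests on a single probe set. The table's Slfn3 carries the identifier of the gene that RefSeq now names Slfn4, and Schlafen genes are similar in sequence, so the signal may hold more than 1 family member.

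Among the transcription factors, Irf7, which drives type I interferon genes and is itself induced by them, followed the same order as Slfn3. Its signals were 10.30, 10.96 and 10.37 in vehicle rats, 8.67, 9.30 and 10.15 in CCl4 rats, and 11.26, 11.68 and 11.00 in CCl4+Rot rats. No group overlapped another, although CCl4 rat 3 came close to the lowest vehicle rat. The mean was 2.26-fold lower in CCl4 than in vehicle and 3.84-fold higher in CCl4+Rot than in CCl4, a log2 difference of 1.94 with CCl4 rat 3 and of 2.33 without it. Stat2, a subunit of the complex that binds the ISRE, read 10.92, 11.09 and 10.64 in vehicle rats, 10.02, 10.20 and 9.91 in CCl4 rats, and 10.57, 10.85 and 10.72 in CCl4+Rot rats. For Stat2 the CCl4 rats lay below both other groups, which overlapped each other. Irf9, the DNA-binding partner of STAT2, was 1.67-fold higher in CCl4+Rot than in CCl4 rats, and CCl4 rat 3 (10.04) lay inside the vehicle range of 9.80 to 10.26 while CCl4 rats 1 and 2 were at 9.46 and 8.99. Without rat 3 its difference between CCl4+Rot and CCl4 was 1.01 in place of 0.74, and that between CCl4 and vehicle -0.80 in place of -0.53. Irf1, an early target of interferon-gamma, differed from the other 3. It read 9.72, 9.40 and 9.41 in vehicle rats, 9.66, 9.78 and 10.53 in CCl4 rats, and 10.03, 9.68 and 9.63 in CCl4+Rot rats. CCl4 rat 3 had the highest signal of all 9 rats. The CCl4 minus vehicle difference was 0.48 with it and 0.21 without, and the CCl4+Rot minus CCl4 difference -0.20 with it and 0.07 without.

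The RNA sensors Ddx58 (RIG-I), Ifih1 (MDA5) and Dhx58 (LGP2) and the Z-nucleic acid sensor Zbp1 were all higher in mean in CCl4+Rot than in CCl4 rats, by 0.57, 0.47, 0.75 and 0.71. Ddx58 read 11.42, 11.48 and 11.26 in vehicle rats, 10.68, 10.31 and 11.13 in CCl4 rats, and 11.30, 11.55 and 10.99 in CCl4+Rot rats. Here the CCl4 rats lay below all vehicle rats, and CCl4+Rot rat 6 lay below CCl4 rat 3. Dhx58 was 1.55-fold lower in CCl4 than in vehicle and 1.68-fold higher in CCl4+Rot than in CCl4, with no overlap in either case. The vehicle signals of Ifih1 spanned only 8.79 to 8.81, the CCl4 signals 8.13 to 9.11, and the CCl4+Rot signals 8.82 to 9.14. Without CCl4 rat 3 the CCl4 minus vehicle difference of Ifih1 was -0.52 in place of -0.24, and its CCl4+Rot minus CCl4 difference 0.75 in place of 0.47. Zbp1 read 7.17, 7.05 and 7.15 in vehicle rats, 6.95, 6.74 and 8.30 in CCl4 rats, and 7.99, 7.95 and 8.16 in CCl4+Rot rats. Both low CCl4 rats were below vehicle, CCl4 rat 3 was the highest of all 9, and all CCl4+Rot rats were above vehicle. The CCl4 minus vehicle difference of Zbp1 was 0.20 and turned to -0.28 without CCl4 rat 3, and its CCl4+Rot minus CCl4 difference went from 0.71 to 1.19.

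The effectors that act on RNA and translation held some of the largest differences. Oas1a, an oligoadenylate synthetase whose product activates RNase L, read 10.04, 10.89 and 10.05 in vehicle rats, 8.09, 8.18 and 8.93 in CCl4 rats, and 10.69, 10.95 and 9.91 in CCl4+Rot rats. The CCl4 rats lay well below both other groups, at 3.81-fold under the vehicle mean, and the CCl4+Rot mean was 1.14-fold above vehicle with overlapping animals. Ifit3, which takes part in binding foreign RNA, read 8.65, 9.11 and 8.29 in vehicle rats, 6.72, 7.12 and 7.81 in CCl4 rats, and 9.12, 9.65 and 8.99 in CCl4+Rot rats. It was 2.76-fold lower in CCl4 than in vehicle and 4.10-fold higher in CCl4+Rot than in CCl4. Ifit2, the gene next to Ifit3 in the RefSeq order, had another pattern. Its signals were 9.62, 10.01 and 9.65 in vehicle rats, 9.87, 9.56 and 9.11 in CCl4 rats, and 10.57, 10.52 and 10.51 in CCl4+Rot rats. Vehicle and CCl4 overlapped, and the 3 CCl4+Rot rats lay close together above all others, 2.02-fold over the CCl4 mean and 1.71-fold over vehicle. Without CCl4 rat 3 the CCl4 minus vehicle difference was -0.04 in place of -0.25.

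Eif2ak2 encodes PKR, the kinase that halts translation on sensing double-stranded RNA. It read 9.63, 9.94 and 9.57 in vehicle rats, 8.74, 8.91 and 9.14 in CCl4 rats, and 9.69, 10.30 and 9.92 in CCl4+Rot rats. All CCl4 rats were below both other groups. Oasl, a relative of the oligoadenylate synthetases, ran from 8.24 to 8.59 in vehicle, from 7.42 to 8.81 in CCl4 and from 8.76 to 9.56 in CCl4+Rot rats. The highest CCl4 value, that of rat 3, overlapped the CCl4+Rot range, and without it the CCl4 minus vehicle difference was -0.83 in place of -0.42. Oas1b was not called present on any array and is given no fold. Ifit1 was present only on the array of vehicle rat 5 (9.08). Its vehicle mean was 3.35-fold higher than its CCl4+Rot mean, a value that rests on that 1 animal and is no lower bound. The signals called absent read 6.16 and 6.68 in vehicle rats 3 and 4, 4.40 to 6.45 in CCl4+Rot rats, and 8.90 in CCl4 rat 3.

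Of the GTPases, Mx1 and Mx2 block the replication of several viruses and are separated by 1 gene in the RefSeq order. Relative to vehicle, their levels in CCl4+Rot rats differed. Mx1 read 9.06, 9.44 and 8.46 in vehicle rats, 6.97, 7.88 and 8.93 in CCl4 rats, and 10.33, 10.70 and 10.04 in CCl4+Rot rats. Its CCl4+Rot rats lay above all others, 5.37-fold over the CCl4 mean and 2.58-fold over vehicle, while CCl4 rat 3 lay within the vehicle range. Without that rat the CCl4+Rot minus CCl4 difference was 2.93, against 2.42 with it. Mx2 read 9.94, 10.27 and 9.75 in vehicle rats, 8.02, 7.92 and 8.83 in CCl4 rats, and 10.10, 10.57 and 9.72 in CCl4+Rot rats. In this case all CCl4 rats were low, 3.32-fold under the vehicle mean, and the CCl4+Rot rats overlapped vehicle at 1.10-fold. Gbp2, Irgm and Igtp are GTPases that interferon-gamma induces strongly. Their CCl4 minus vehicle differences were -0.01, -0.09 and -0.18, and their CCl4+Rot minus CCl4 differences 0.63, 0.62 and 0.28. All 3 had their highest CCl4 signal in rat 3. Without that animal the CCl4 minus vehicle differences were -0.23, -0.50 and -0.54 and the CCl4+Rot minus CCl4 differences 0.85, 1.04 and 0.65. For Irgm and Igtp that signal lay above all vehicle rats, at 10.55 against 9.64 to 10.03 and at 11.01 against 10.23 to 10.58.

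Bst2 (tetherin), which holds budding virus on the cell surface, read 13.20, 12.83 and 13.10 in vehicle rats, 12.69, 12.38 and 12.24 in CCl4 rats, and 12.63, 12.94 and 12.77 in CCl4+Rot rats. It was the member with the lowest CCl4+Rot mean relative to vehicle among those present on all arrays, at -0.27, and its CCl4+Rot and CCl4 rats overlapped. Rsad2 (viperin) and Cmpk2 lie next to each other in the RefSeq order and both act on nucleotides. Rsad2 read 8.87, 8.70 and 8.57 in vehicle rats, 8.24, 7.99 and 9.53 in CCl4 rats, and 9.35, 9.73 and 8.65 in CCl4+Rot rats. The 9.53 of CCl4 rat 3 was called absent, and without that animal the CCl4+Rot minus CCl4 difference was 1.13 in place of 0.66 and the CCl4 minus vehicle difference -0.60 in place of -0.13. Cmpk2 read 7.78, 7.82 and 7.24 in vehicle rats, 7.13, 7.40 and 7.55 in CCl4 rats, and 8.62, 8.88 and 8.53 in CCl4+Rot rats. Its CCl4+Rot rats lay above all others, 2.49-fold over the CCl4 mean and 2.09-fold over vehicle, and it was called present on 6 arrays only.

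Of the 4 genes of ISG15 conjugation and its ligases, Isg15, Usp18 and Herc6 had all CCl4 rats below all vehicle rats. Isg15, the ubiquitin-like modifier, read 10.19, 10.35 and 9.26 in vehicle rats, 8.77, 8.47 and 8.37 in CCl4 rats, and 10.08, 11.09 and 9.97 in CCl4+Rot rats. Unlike most members it was lowest, and not called present, in CCl4 rat 3, and all CCl4 rats lay below both other groups. The CCl4 mean was 2.63-fold under vehicle and the CCl4+Rot mean 3.59-fold over CCl4. Usp18, the protease that removes ISG15 and damps the interferon receptor, read 10.35, 10.70 and 10.16 in vehicle rats, 8.70, 8.66 and 9.65 in CCl4 rats, and 10.33, 11.41 and 10.34 in CCl4+Rot rats. The CCl4 rats again lay below both other groups, and CCl4+Rot rats 4 and 6 were inside the vehicle range with rat 5 above it. Herc6, an ISG15 ligase of rodents, read 7.97, 8.12 and 7.90 in vehicle rats, 7.11, 6.44 and 7.67 in CCl4 rats, and 8.22, 8.74 and 8.57 in CCl4+Rot rats. As for Slfn3 and Irf7, its 3 groups did not overlap. Trim25, a ubiquitin ligase that acts on RIG-I, had overlapping CCl4 and vehicle rats and a CCl4+Rot mean 1.43-fold over CCl4.

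The ADP-ribosyltransferases Parp9 and Parp14, which flank Dtx3l in the RefSeq order, were 1.53-fold and 1.48-fold higher in CCl4+Rot than in CCl4 rats. Parp9 separated these groups, with CCl4 at 10.37 to 10.56 and CCl4+Rot at 11.04 to 11.22, whereas CCl4 rat 3 (11.01) reached the CCl4+Rot range of Parp14. Without that rat Parp14 differed by 0.85 in place of 0.57 between CCl4+Rot and CCl4, and by -0.59 in place of -0.30 between CCl4 and vehicle. Rtp4, a receptor chaperone with antiviral activity, read 11.44, 11.27 and 10.42 in vehicle rats, 10.14, 9.61 and 10.07 in CCl4 rats, and 11.49, 12.06 and 11.01 in CCl4+Rot rats. It was 2.15-fold lower in CCl4 than in vehicle and 2.99-fold higher in CCl4+Rot than in CCl4, and CCl4+Rot overlapped vehicle. Ifi27, Ifi44 and Ifi44l differed by 0.53, 0.51 and 0.45 between CCl4+Rot and CCl4, each with no overlap between these groups. Of the 3, only Ifi27 also had all CCl4 rats below all vehicle rats, at 13.85 to 14.26 against 14.42 to 14.59.

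**Figure D3:**
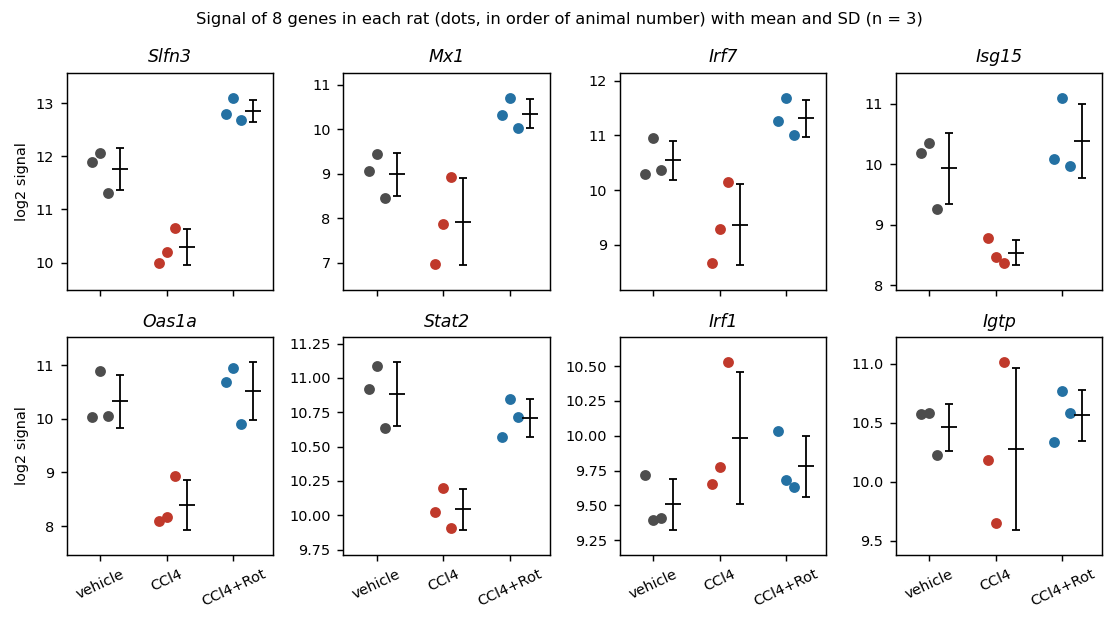
Log2 signal of 8 members in each rat, with dots in order of animal number within vehicle, CCl4 and CCl4+Rot, and the mean with SD (n = 3) beside each group; each panel has its own axis, which does not start at 0. Slfn3 and Irf7 show 3 separate groups, Mx1 is high in CCl4+Rot rats, Isg15, Oas1a and Stat2 are low in CCl4 rats, and Irf1 and Igtp are highest in CCl4 rat 3.

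Set against vehicle, the members fell into 4 sets. Irf7, Herc6 and Slfn3 had all CCl4 rats below and all CCl4+Rot rats above vehicle, an order shown by 13 of all 14377 genes (0.0904%). For 12 members (Stat2, Ddx58, Dhx58, Ifit3, Oas1a, Eif2ak2, Mx2, Bst2, Isg15, Usp18, Ifi27 and Rtp4) all CCl4 rats were below vehicle and the CCl4+Rot rats overlapped it (8.44% of all genes had the CCl4 rats below and not all CCl4+Rot rats above). A further 8 (Ifih1, Zbp1, Ifit2, Oasl, Mx1, Gbp2, Cmpk2 and Ifi44l) had CCl4 rats that overlapped vehicle and CCl4+Rot rats that were all above it (15.1% of all genes had the CCl4+Rot rats above and not all CCl4 rats below). The remaining 11, with the undetected Oas1b and Ifit1 among them, overlapped vehicle in both groups, and 76.3% of all genes fell outside the first 3 sets. The members were chosen by these levels, so the shares are given as background. The sets do not follow the roles: Mx1 and Mx2, and Ifit2 and Ifit3, stand in different ones. All sets and shares were counted with CCl4 rat 3, whose array stood apart, and they depend on it. Without that rat the CCl4 rats lay below all vehicle rats for 25 members in place of 15 (15.1% of all genes). Ifih1, Zbp1, Oasl and Mx1 would then join Irf7, Herc6 and Slfn3.

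**Figure D4:**
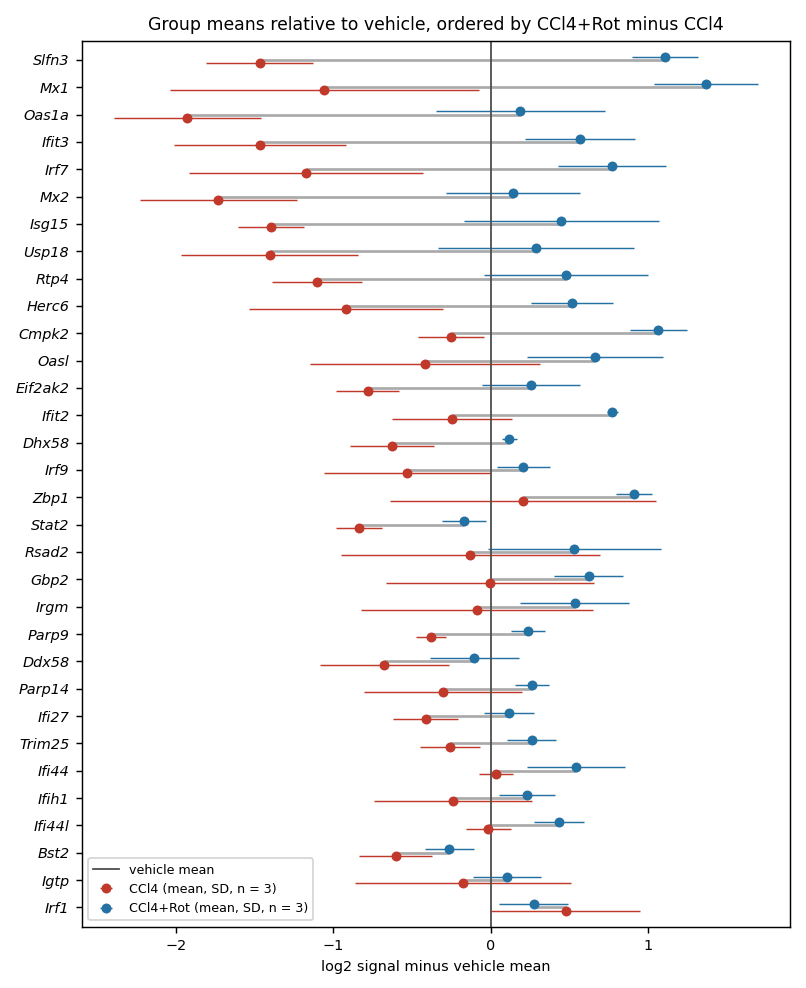
Mean log2 signal of CCl4 (red) and CCl4+Rot (blue) rats minus the vehicle mean (line at 0), with SD (n = 3), for the 32 members called present on at least 3 arrays, ordered by the difference between both groups. Slfn3 and Mx1 span the widest differences, 2.58 and 2.42, and Irf1 at the bottom is the member whose CCl4 mean lies above its CCl4+Rot mean.

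Within each group the rats differed in the same direction over many members. CCl4+Rot rat 5 had the highest signal of its group for 28 of the 34 members, against 31.4% of all genes, and lay above all vehicle rats for 28, where rats 4 and 6 did so for 16 and 12. The shares of all genes above all vehicle rats were 34.0%, 33.0% and 33.7% in rats 4, 5 and 6. CCl4 rats 1 and 2 lay below all vehicle rats for 27 and 26 members and rat 3 for 16, against 30.7%, 27.1% and 27.5% of all genes. CCl4 rat 3 had the highest signal of its group for 26 members, but also for 50.9% of all genes. Among the vehicle rats, animal 4 was the highest for 24 members and animal 5 the lowest for 24, against 28.9% and 31.3% of all genes. Averaged over the members, the difference from the vehicle mean was -0.81, -0.77 and -0.18 in CCl4 rats 1, 2 and 3 and 0.27, 0.64 and 0.24 in CCl4+Rot rats 4, 5 and 6. Members measured in the same animal share its RNA and its array and are not replicates of the group.

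**Figure D5:**
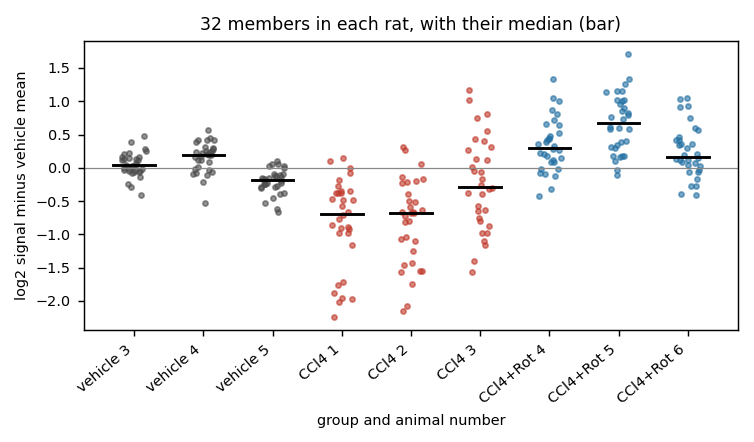
Difference from the vehicle mean (log2 signal) of the 32 members called present on at least 3 arrays, 1 dot a member, in each of the 9 rats, with the median as a bar. The medians are -0.69, -0.68 and -0.28 in the CCl4 rats and 0.30, 0.68 and 0.16 in the CCl4+Rot rats.

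For 8 members a further single-gene probe set was on the array. Those of Ifit2, Irf9, Parp14 and Dhx58 were higher in all CCl4+Rot than in all CCl4 rats, by 0.55 for Ifit2, 1.11 for Irf9 and 0.99 for Parp14, and by 1.07 and 1.49 for the pair of Dhx58, the second of which was called present on no array. That of Cmpk2 overlapped between the groups, with a difference of 0.48. Igtp differed by 0.03 on its further probe set against 0.28 on the one used. The further probe set of Mx2 had signals of 3.26 to 4.83 on 8 arrays and of 7.58 on that of CCl4 rat 3, and ran the other way, with a CCl4+Rot minus CCl4 difference of -0.73. The probe set read for Dhx58 belongs to a type in which some probes can match other transcripts. On the further Dhx58 probe set that was called present, the CCl4 rats overlapped vehicle and all CCl4+Rot rats lay above it. On that of Irf9 all CCl4 rats lay below vehicle, rat 3 included at 8.94. The standing of Dhx58 and Irf9 relative to vehicle thus depends on the probe set read.

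Genes of the pathway outside the listed members were counted in the same limma fit, which called none of them in any of the 3 comparisons. Of 17 interferon genes 3 were measured, and Ifnb1 and Ifnk were called present on no array and Ifng on 2. Of the receptors and JAK-STAT components 19 of 20 were measured, with a median CCl4+Rot minus CCl4 difference of 0.16. This median was -0.05 over all genes and 0.01 over genes called present on at least 3 arrays. Irf2, which can repress interferon targets, differed by 0.48 and Pias1, an inhibitor of STAT signaling, by 0.33, with adjusted p values of 0.724 and 0.75 (limma). Of 27 sensors and adaptors 15 were measured, with a median of 0.16, and those with the smallest p values were Tlr7, Trex1 and Irf3, at 0.86, 0.49 and 0.22. At an unadjusted p below 0.05 (limma), CCl4+Rot minus CCl4 held 4 of the receptor list and none of the sensor list. Over all probe sets the count was 2057 of 31042. Of the 4, Ifnlr1 was called present on no array and had a lower signal in CCl4+Rot than in CCl4 rats.

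Of 69 other interferon-stimulated genes 40 were measured, and 30 of them were higher in CCl4+Rot than in CCl4, with a median of 0.29. Of all genes 43.8% were higher in this comparison, and of those called present on at least 3 arrays 52.1%. Between CCl4 and vehicle 21 of the 40 were higher and 19 lower, with a median of 0.04, unlike the members. None was called by limma in any comparison. Between CCl4+Rot and CCl4, 13 had an unadjusted p below 0.05 (limma), against 2057 of all 31042 probe sets. Ddx60, a helicase that aids RNA sensing, read 9.18, 8.72 and 8.49 in vehicle rats, 7.48, 8.50 and 8.82 in CCl4 rats, and 9.81, 10.52 and 9.89 in CCl4+Rot rats. Its CCl4+Rot rats lay above all others, with a difference from CCl4 of 1.81 and an adjusted p of 0.608 (limma). Dtx3l, the ubiquitin ligase that pairs with Parp9, differed by 0.81 and the helicase Mov10 by 0.65. With the spread following the signal, limma called Ifitm2 and Casp4 in this list, both higher in CCl4 than in vehicle (by 0.96 and 0.94), so they ran against the members.

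Of 28 targets of interferon-gamma and genes of MHC class I presentation 22 were measured, with a CCl4+Rot minus CCl4 median of 0.19. The immunoproteasome subunit Psmb8 differed by 0.60, the peptide transporter Tap1 by 0.49 and the chemokine Cxcl11 by 0.40, with adjusted p values of 0.724, 0.724 and 0.75 (limma). An unadjusted p below 0.05 (limma) was found for 2 genes of the list, against 2057 of all 31042 probe sets. Cxcl9, another such chemokine, was called with the spread following the signal and read 9.81, 10.14 and 10.13 in vehicle rats, 7.71, 8.26 and 8.85 in CCl4 rats, and 8.56, 8.38 and 9.19 in CCl4+Rot rats. Both groups given CCl4 lay below vehicle, and unlike most members the CCl4+Rot rats overlapped the CCl4 rats.

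Of 9 other Schlafen genes 3 were measured, all present on all 9 arrays, and all 3 had higher signals in every CCl4+Rot rat than in any CCl4 rat. Of all genes 5.57% had this order, and the rest of the listed Schlafen genes were not measured. Slfn5 read 9.58, 9.67 and 9.44 in vehicle rats, 8.62, 9.29 and 9.42 in CCl4 rats, and 10.23, 10.58 and 10.44 in CCl4+Rot rats. Its CCl4+Rot minus CCl4 difference was 1.31, with an adjusted p of 0.504 (limma). Slfn2, a regulator of lymphocyte quiescence, differed by 0.91 and Slfn13 by 0.79, with adjusted p values of 0.724 and 0.752 (limma). An unadjusted p below 0.05 (limma) was found for 2 of the 3 genes, against 2057 of all 31042 probe sets. In contrast to Slfn3, the CCl4 means of Slfn2 and Slfn13 were not below vehicle, at differences of 0.29 and 0.33. Slfn2 was called as higher in CCl4+Rot than in vehicle where the spread followed the signal.

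The genes outside the list whose signals over the 9 rats lay nearest to the mean profile of the 29 members present on all arrays included, in order, Rnf213, LOC100910885, Hspa4, Cebpa, Slc22a23, LOC685067, Apol9a, Dtx3l and Atxn1l. Likeness was the root-mean-square difference of centred log2 signals over 9 arrays, which ran from 0.174 for Rnf213 to 0.247 for Atxn1l, with a median of 0.515 over the 7029 genes compared. The members themselves ran from 0.145 to 0.691. Rnf213, a large ubiquitin ligase, read 9.52, 9.44 and 9.08 in vehicle rats, 8.67, 9.05 and 9.39 in CCl4 rats, and 9.67, 10.02 and 9.70 in CCl4+Rot rats. LOC685067 carries the identifier of the gene that RefSeq names Gbp7. Cebpa, the hepatocyte transcription factor, read 12.37, 12.08 and 12.28 in vehicle rats, 11.45, 11.26 and 11.92 in CCl4 rats, and 12.62, 12.47 and 12.49 in CCl4+Rot rats, and is in none of the interferon lists.

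Markers of the cells that whole liver holds were read beside the members. Of 12 hepatocyte markers 11 were measured, and all 11 were present on all 9 arrays. Their summed signal, on the linear scale, was 316150 to 358530 in vehicle, 240130 to 337110 in CCl4 and 335040 to 350650 in CCl4+Rot rats, with the lowest value in CCl4 rat 3. Of 14 macrophage markers 10 were measured, all on every array, and their sum was 23473 to 30007 in vehicle, 26976 to 35301 in CCl4 and 35568 to 41911 in CCl4+Rot rats. The macrophage sum was thus highest in the CCl4+Rot rats, and its CCl4 and vehicle ranges overlapped. Of the 10 macrophage markers 6 were higher and 4 lower in CCl4 than in vehicle, with a median difference of 0.15. Between CCl4+Rot and CCl4, 9 were higher and 1 lower, with a median of 0.23. Clec4f, which marks Kupffer cells, was among the 4 and was named after its values were seen. Clec4f read 12.85, 12.50 and 12.71 in vehicle rats, 12.09, 12.56 and 12.07 in CCl4 rats, and 12.88, 12.82 and 12.69 in CCl4+Rot rats. Its mean differed by -0.45 between CCl4 and vehicle and by 0.56 between CCl4+Rot and CCl4, with adjusted p values of 0.409 and 0.724 (limma). Of 9 neutrophil markers 7 were measured and Cxcr2, Camp and Np4 were present on no array, and the sum of 288 to 1215 in vehicle, 638 to 1135 in CCl4 and 1381 to 2533 in CCl4+Rot rats was highest in the CCl4+Rot rats. Of 18 T and NK cell markers 14 were measured, and Cd3d, Cd8a, Cd8b, Cd4, Cd2, Lck and Ncr1 were present on no array. Their sum was 1256 to 1600.5 in vehicle, 974 to 2723 in CCl4 and 1534 to 1850.4 in CCl4+Rot rats. The 2723 was that of CCl4 rat 3, whose array stood apart. Of 10 plasmacytoid dendritic cell markers 3 were measured, and their sum was 556 to 675 in vehicle, 628 to 1008.5 in CCl4 and 873 to 948 in CCl4+Rot rats. The part of these cells in the members' signals was not tested.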

How the data were processed

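Total RNA from the livers of 9 rats, 3 in each group and 1 array per rat, was hybridised to Affymetrix rat gene expression arrays. The authors deposited a table of log2 signals with present, marginal or absent calls for 31099 probe sets, and the submitters' processing notes name MAS5 and affy, with no version. Once 2% of the antilogs are trimmed at each end, their mean is 500 on each array. The genome build behind the table is not given in the sources used here. Log2 values were used as deposited, without the 57 control probe sets, and their precision is limited by the number of arrays.

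A linear model with 3 group means and no covariate was fitted to the other 31042 probe sets (limma 3.58.1, R 4.3.3) and was checked on simulated data. P values were adjusted by Benjamini-Hochberg over all probe sets, and a call needed an adjusted p under 0.05 together with the 1.5-fold change that the methods set. The 20317 probe sets naming a single symbol gave 14377 genes. Members and lists were chosen with earlier results of these data known. Named genes were all measured members, per other list the genes called and up to 3 with the smallest p between CCl4+Rot and CCl4 among those present on at least 3 arrays, and the 10 genes nearest the members' mean profile. A gene that this rule names is not reported here. Genes that only the fit with a signal-dependent spread called, Ifng, and markers were named after their values were seen. A gene present on no array of either group was given no fold. For one present in only 1 group, signals of the other group below the lowest present signal of their array were set to that signal. No Ifit1 signal was that low, so its fold is the plain ratio. Promoters came from RefSeq (GRCr8). Alternatives covered scaling, filters, probe set choice, spread model, test, block and left-out arrays.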

Additional observations from a re-analysis of the deposited data

How the results depend on the processing

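With 3 rats a group, calls depended on the fit. Between CCl4 and vehicle, limma called 0 probe sets, and 4 without the 30% of lowest signal, 78 among those present on at least 3 arrays, 348 with the spread following the signal, and 1774 by the methods' t-test, named for the study in general and not for the arrays, unadjusted (0 after Benjamini-Hochberg). Between CCl4+Rot and CCl4 the 1 call became 0 under quantile normalization, both filters, the fit of only the 2 groups and the adjusted methods' t-test, which held 851 unadjusted. Between CCl4+Rot and vehicle the 8 calls became 3 under quantile normalization, 2 with arrays centred on their medians, 22 and 63 under the filters, 241 with the spread following the signal, 1 in the fit of only the 2 groups, and 2126 (0 adjusted) by the methods' t-test. Leaving out each array gave 0 to 0, 0 to 2 and 0 to 24 calls, with 24 without CCl4 rat 2 and 0 without CCl4 rat 3. With the animal number as a random block (replicate block) the counts were 0, 1 and 8. Same-numbered animals did not deviate together (correlations -0.09, -0.005 and -0.01), so the samples share only a number.

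The members' median differences ranged over left-out arrays from -0.66 to -0.32 for CCl4 minus vehicle, 0.65 to 1.02 for CCl4+Rot minus CCl4 and 0.22 to 0.49 for CCl4+Rot minus vehicle, each keeping its sign. Centring on array medians shifted every CCl4 minus vehicle value by -0.36, every CCl4+Rot minus CCl4 value by 0.25 and every CCl4+Rot minus vehicle value by -0.11. It moved the members' CCl4 minus vehicle median to -0.77 and turned Zbp1 and Ifi44 to lower in CCl4, Irf1 to 0.04 between CCl4+Rot and CCl4, and Igtp to -0.01 between CCl4+Rot and vehicle. Quantile normalization turned Zbp1, Ifi44 and Gbp2 between CCl4 and vehicle, to -0.05, -0.09 and 0.005. Over the 288 values with 1 array left out in each comparison, the sign turned in 14 for CCl4 minus vehicle (Zbp1, Gbp2, Irgm, Igtp, Rsad2, Ifi44 and Ifi44l), in 2 for CCl4+Rot minus CCl4 (Irf1 to 0.07 without CCl4 rat 3 and Igtp to -0.04 without CCl4 rat 2) and in 7 for CCl4+Rot minus vehicle. The last were Oas1a, Mx2, Usp18 and Igtp without CCl4+Rot rat 5 (-0.03, -0.08, -0.07 and -0.002), Ddx58 without CCl4+Rot rat 6 (0.04), Igtp without vehicle rat 5 (-0.01) and Trim25 without vehicle rat 4 (-0.007). Averaging a gene's probe sets turned no member but brought the CCl4+Rot minus CCl4 difference of Slfn3 to 0.98 and of Mx2 to 0.57. No pathway list held a call in limma or with any array left out. With the spread following the signal, added after seeing the data together with the lists' left-out arrays, 2 of the other interferon-stimulated genes, 1 of the interferon-gamma targets and 1 other Schlafen gene were called. The cause of these differences was not tested.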

Other observations

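Markers of further liver cells were read in the same way. All 10 stellate cell and myofibroblast markers were measured, and their summed linear signal was 8566 to 14077 in vehicle, 19879 to 35203 in CCl4 and 29677 to 37097 in CCl4+Rot rats, so both groups given CCl4 lay above vehicle. Of 10 endothelial markers 8 were measured, with sums of 11610 to 12587, 9137 to 11656 and 11426 to 12882. Of 10 B and plasma cell markers 6 were measured, with sums of 954 to 1109.8, 1624 to 1798 and 1404 to 1704. Limma called none of these markers, and with the spread following the signal it called 4 of the stellate cell list as higher in CCl4 than in vehicle and 6 as higher in CCl4+Rot than in vehicle.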
